A study of Mus musculus with 8 samples.

Results

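Mature olfactory sensory neurons were compared with their younger relatives in control mice by ribosome profiling, which sequences the stretches of mRNA covered by ribosomes (footprints), and by RNA sequencing. The comparison was of OMP-GFP control cells against Ngn1-GFP control cells, and its members were the 4 footprint libraries that the labels place in these 2 groups, of 8 in the series. All cells came from the main olfactory epithelium, the sensory sheet of the nose, and were sorted for GFP after papain dissociation. Ngn1-GFP control mice carried floxed Mex3a, homozygous or heterozygous, with no Cre driver, and an Ngn1-GFP transgene that marks immediate neuronal progenitors and immature olfactory sensory neurons. OMP-GFP control mice carried the same floxed Mex3a without Cre and an OMP-ires-GFP knock-in, which reports from the Omp locus in mature olfactory sensory neurons. The other libraries came from mice in which a Cre driver had deleted Mex3a, with the same GFP alleles, and their pair of groups (OMP-GFP KO against Ngn1-GFP KO) is given beside the control pair because it shares no column with it. The labels of OMP-GFP KO name OMP-ires-GFP in one field and OMP-ires-Cre in another. The animals' age and the number pooled per library are not given in the sources used here.

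Olfactory neurons are replaced throughout life. Basal stem cells give dividing precursors that express proneural transcription factors such as Neurog1, these leave the cell cycle as immature neurons that grow an axon towards the olfactory bulb, and mature neurons then extend sensory cilia, keep the expression of a single odorant receptor gene and transduce odours through a cyclic AMP cascade. Footprint counts reflect both how much mRNA a cell has and how densely ribosomes occupy it, and the ratio of footprints to RNA is the usual measure of the latter.

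The deposited table held 1 column of coding-sequence counts per group and assay for 22553 genes, although the labels list 2 footprint libraries per group. No source used here says which RNA libraries the RNA columns came from, which bears on every RNA and footprint-per-RNA value. There was thus no replicate spread and no test, and every ratio below describes these columns, not the groups. Footprint columns held 3031489 to 4456989 counts and RNA columns 26946592 to 89327877, the largest in each case being Ngn1-GFP control. Values were scaled within each assay by library size and TMM factors and are given as CPM, counts scaled to a common library total. Ratios are log2 of OMP-GFP over Ngn1-GFP, positive when mature cells were higher, and were computed for genes with 20 or more counts in the pair of columns. A gene was called higher or lower when it differed at least 2-fold and the 95% interval from counting error, shown as "interval", lay on 1 side of no difference. A count of 0 was set to a floor of 3 counts for the ratio, and the interval of a footprint or RNA ratio was then open on 1 side. These intervals hold counting error only. Wherever 4 values are listed, the order is Ngn1-GFP control, OMP-GFP control, Ngn1-GFP KO and OMP-GFP KO, and those in Ngn1-GFP KO and OMP-GFP KO form the KO pair.

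The labels were checked against marker genes first. Precursor markers made up 0.289%, 0.061%, 0.303% and 0.056% of footprints, so both Ngn1-GFP columns were the higher ones. Mature neuron markers made up 5.10%, 7.47%, 5.50% and 8.17%, and the OMP-GFP columns were the higher ones. Omp itself, the gene whose locus carries the OMP-GFP reporter, had footprints of 2559, 2839, 2754 and 3983 CPM. It was therefore abundant in every column, Ngn1-GFP included, and the Ngn1-GFP columns also hold RNA of neurons that express mature genes.

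Markers of cells outside the neuronal lineage differed between the control columns and are set apart from the neuronal results. Sustentacular cell markers, mainly detoxifying enzymes of the supporting cells, took 0.947% of footprints in Ngn1-GFP control against 0.036%, 0.171% and 0.0971% in the others. All 23 of 23 measured were called lower in mature cells, where 17.4% of all genes were, with a median log2 ratio of -4.57, whereas the KO pair had a median of -0.56. Nasal gland markers took 0.161%, 0.0239%, 0.181% and 0.0833% of footprints, with 17 of 20 lower in the control pair. Stroma and vessel markers took 0.293%, 0.0333%, 0.334% and 0.0354%, with 19 of 24 lower. Horizontal basal cell markers took 0.0281%, 0.00478%, 0.0261% and 0.00339%, with 10 of 11 lower, and Trp63, Krt15, Cxcl14 and Lamb3 of that list had no footprints in OMP-GFP control. Microvillar, tuft and ionocyte markers (7 of 10) and ensheathing glia markers (6 of 6) were also lower. Each of these 6 lists was thus higher in Ngn1-GFP control than in OMP-GFP control, and the part of such cells in the ratios of other genes was not tested. Immune cell markers had few footprints, with 3 of 7 lower.

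The Ngn1-GFP control RNA column also stood apart. In it 375 genes, with 4.87% of its counts, were at least 8-fold above each of the other RNA columns, against 1, 10 and 5 genes for the other columns, and 140 genes with 100 or more counts there had 0 in all the others. These 140 included 4 mitochondrially encoded genes and 8 clustered histone genes. Of mt-Co2, a cytochrome oxidase subunit, the RNA counts were 340195, 0, 0 and 0. Footprints set fewer genes apart, 54 in Ngn1-GFP control with 0.558% of its counts. The cause was not tested. The all-gene counts called in RNA and in footprints per RNA are given with and without these genes. So are the RNA medians of odorant receptors, clustered histones, ribosomal proteins and mitochondrially encoded genes. Other RNA and footprint-per-RNA counts and medians include them unless stated.

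Many more genes were lower in mature cells than higher. For footprints, 757 of 12387 measured genes (6.11%) were called higher and 2160 (17.4%) lower. For RNA, 564 of 16466 (3.43%) were higher and 3962 (24.1%) lower, or 3587 lower without the genes whose RNA stood apart. For footprints per RNA, 740 of 12378 (5.98%) were higher and 1057 (8.54%) lower, or 704 higher without those genes. With the other-cell markers left out, footprints were higher for 757 and lower for 2075 of 12277 genes. A list's counts below are to be read against these shares of all genes, and medians of the KO pair are over the members measured in that pair. With scaling by library size alone the footprint counts became 461 higher and 2605 lower, and the footprint median of all genes moved from -0.02 to -0.23.

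Lower footprints mostly went with lower RNA, while higher footprints mostly did not go with RNA that passed the call. Of 2156 genes lower in footprints and measured in both assays, 1322 (61.3%) were also called lower in RNA and 9 higher. Of 756 genes higher in footprints, 130 (17.2%) were called higher in RNA and 26 lower. The other 600 had RNA ratios short of the call, with a median of 0.42, so most leaned upward. Across 12378 genes the 2 ratios correlated with Pearson's r of 0.71, as a description only, since genes of the same libraries are not independent.

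**Figure D1:**
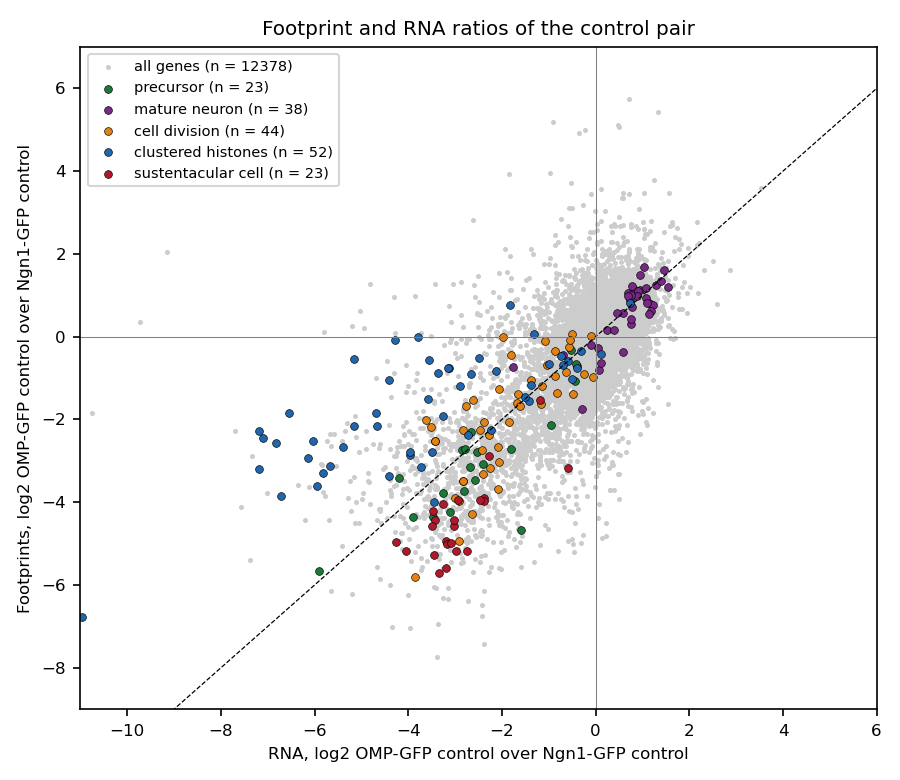
Log2 ratio of OMP-GFP control over Ngn1-GFP control for RNA (x axis) and footprints (y axis), one point per gene with 20 or more counts in the pair in each assay, and gene groups marked by colour. The points spread further towards low values than towards high ones, and r was 0.71 over 12378 genes.

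Precursor genes were lower in mature cells almost without exception. Of 23 measured members 20 were called lower in footprints, against 17.4% of all genes, and 0 higher, and the median of -3.08 corresponded to -2.64 in the KO pair. In RNA, 20 of 26 were lower, against 24.1% of all genes, with a median of -2.66. The list was chosen to mark the younger cells, so this is a check of the sort more than a result. In bulk samples such as these, fewer cells of a type and less RNA per cell cannot be told apart.

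Neurog1, the proneural factor of immediate neuronal precursors, had footprint counts of 509, 7, 272 and 3. Both OMP-GFP columns were near the floor, and the log2 ratio was -5.65 (interval -6.97 to -4.60) for footprints and -5.90 for RNA. Neurod1, which acts after Neurog1, had 1091, 37, 651 and 44 footprints, a ratio of -4.35 (interval -4.86 to -3.88) and an RNA ratio of -3.89. Cxcr4, a chemokine receptor of migrating progenitors, had 883, 30, 780 and 44 footprints and a ratio of -4.35 (interval -4.92 to -3.82). In all of these the Ngn1-GFP columns did not overlap the OMP-GFP ones, and the KO pair gave -6.71, -4.10 and -4.36. Tex15, best known as a germ-cell gene, had 1393, 90, 1857 and 120 footprints and ratios of -3.42 in footprints and -4.21 in RNA.

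Chromatin and signalling genes of the list also stood lower. Ezh2, the methyltransferase of histone H3 lysine 27, had footprint counts of 496, 78, 368 and 116, with a footprint ratio of -2.14 and an RNA ratio of -0.95. Its footprints per RNA thus stood at -1.18. Mex3a, the RNA-binding ubiquitin ligase deleted in the KO mice, had 437, 16, 28 and 5 footprints. In control mice it was a gene of the younger cells, with a footprint ratio of -4.24 (interval -5.06 to -3.52), an RNA ratio of -3.11 and footprints per RNA at -1.13. Eya2, a transcriptional co-activator, had a footprint ratio of -3.77. Crabp1, a cytosolic carrier of retinoic acid outside that list, had 1961, 106, 1476 and 116 footprints and ratios of -3.68 in footprints and -4.12 in RNA, with -3.88 and -4.25 in the KO pair.

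**Figure D2:**
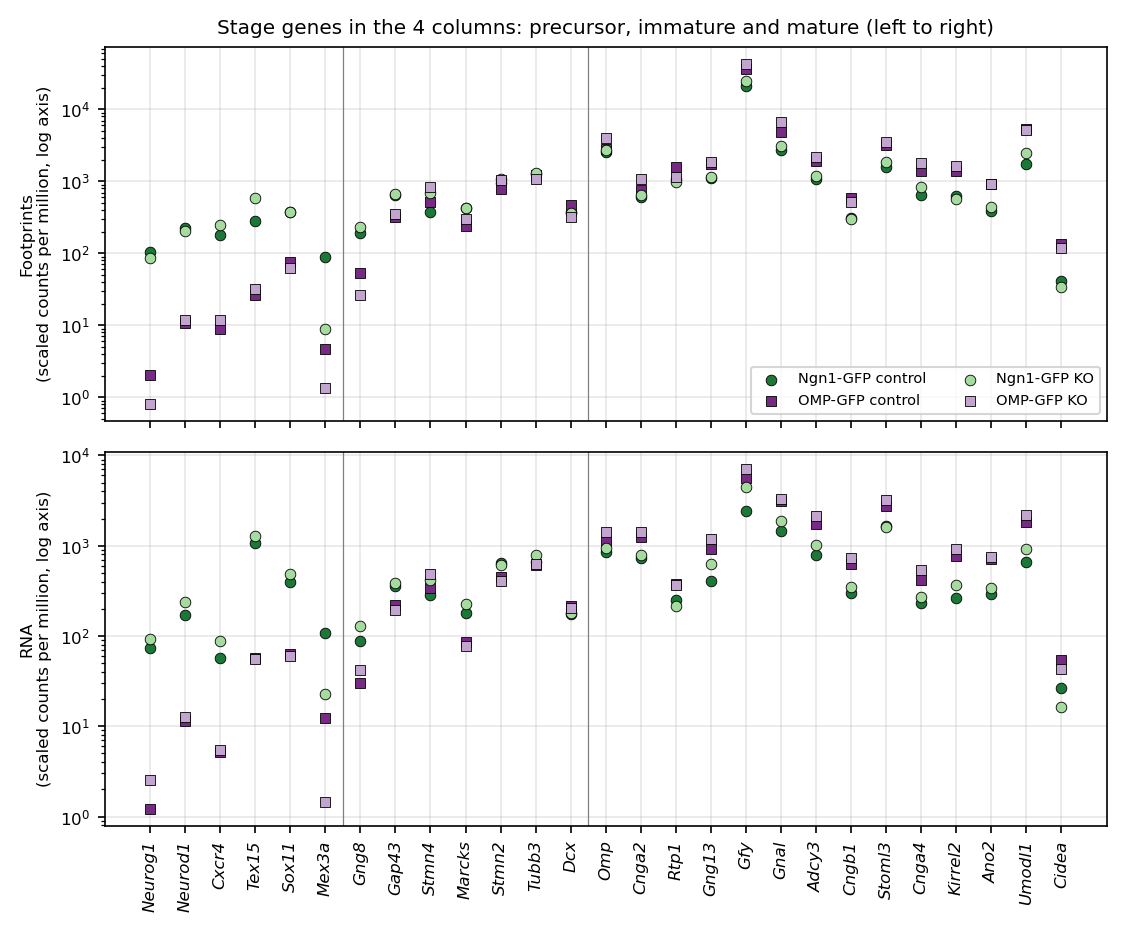
Scaled counts (CPM, log axes) of footprints (top) and RNA (bottom) for precursor, immature and mature stage genes in the 4 columns. Precursor genes such as Neurog1 and Neurod1 lie far lower in both OMP-GFP columns, immature genes differ less, and mature genes such as Gnal and Ano2 lie higher there while Omp is close in all columns.

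Cell division genes were lower in mature cells as a group. Footprints were called lower for 31 of 44 members and higher for none, against 17.4% lower among all genes, with a median of -1.65 and -1.76 in the KO pair. RNA was lower for 39 of 50, with a median of -2.08, and 37 of them were lower in both pairs. Top2a, the topoisomerase that untangles replicated DNA, had 574, 69, 586 and 107 footprints, and its ratios were -2.52 (interval -2.91 to -2.16) for footprints and -3.43 for RNA. Tpx2, a spindle assembly factor, had 236, 11, 124 and 57 footprints and a ratio of -3.89 (interval -4.91 to -3.03). Cdk1, the kinase that drives mitosis, had 58, 10, 44 and 18 footprints and ratios of -2.00 in footprints and -3.63 in RNA. Mki67, the usual marker of cycling cells, had 178, 11, 187 and 47 footprints. Ube2c, a ubiquitin-conjugating enzyme of mitotic exit, had a single footprint in OMP-GFP control against 81 in Ngn1-GFP control, a ratio of -5.81 (interval -11.13 to -3.29), but 56 and 38 in the KO columns, a ratio of -0.77. Mcm6, a subunit of the replicative helicase, had a footprint ratio of -3.03, and Ccnd1, a cyclin that moves cells into the cycle, -2.67.

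These genes moved together, so their promoters were searched. The CCAAT box, the letters CCAAT on either strand, occurred in the 250 bases before the annotated start of 36 of 46 promoters of the cell division list (78.3%), against 33.8% of all 32851 promoters. It occurred in 59.1% of precursor promoters, which were of lower genes, but also in 55.8% of promoters of the cilium list, which leaned higher, and in 30.8% of mature neuron promoters. Genes called lower in RNA in both pairs held it in 34.7% of their promoters and genes called in neither in 34.9%. A match is a description of the letters in this window and not a binding site or a cause. The promoters of Top2a (6 matches) and Cdk1 (3 matches) are shown because both genes were lower in both assays and both pairs. The sequences are from RefSeq on GRCm38.p6, each printed 5′ to 3′ along the gene's strand and ending at the base before the start, with CCAAT or its reverse complement in capitals. Top2a lies on the minus strand at chr11:99024190-99024439 and Cdk1 on the minus strand at chr10:69352913-69353162.
Top2a: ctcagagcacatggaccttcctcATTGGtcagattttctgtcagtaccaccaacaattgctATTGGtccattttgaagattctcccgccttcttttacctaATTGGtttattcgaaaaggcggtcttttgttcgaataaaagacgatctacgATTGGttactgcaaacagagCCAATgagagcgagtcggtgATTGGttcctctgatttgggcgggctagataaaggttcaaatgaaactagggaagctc
Cdk1: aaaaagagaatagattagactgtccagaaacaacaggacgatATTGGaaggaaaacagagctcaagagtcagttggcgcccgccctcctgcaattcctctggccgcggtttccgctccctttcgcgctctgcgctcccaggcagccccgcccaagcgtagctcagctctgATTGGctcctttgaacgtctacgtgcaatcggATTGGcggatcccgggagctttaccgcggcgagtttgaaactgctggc

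Genes of immature neurons differed less and in several directions. Footprints were lower for 11 of 29 and higher for 1, with a median of -0.52 and -0.88 in the KO pair. Gap43, a growth-cone membrane protein, had footprints of 656, 324, 666 and 349 CPM, so both OMP-GFP columns were lower but far from absent. Its ratio was -1.02 (interval -1.12 to -0.92) for footprints and -0.67 for RNA. Gng8, the G protein gamma subunit of immature neurons, had 189.6, 53.8, 231 and 26.2 CPM and ratios of -1.82 (interval -2.05 to -1.59) in footprints and -1.54 in RNA. The microtubule genes Stmn2, Dcx and Tubb3, often used to mark the same stage, had footprint ratios of -0.31, 0.30 and -0.04 and were not called.

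Axon growth genes had a median somewhat below 0. Of 39 measured, 10 were lower and 3 higher in footprints, against 17.4% and 6.11% of all genes, with a median of -0.29, and 8 of the lower ones were lower in both pairs. Dpysl3, a collapsin response mediator of growth cones, had ratios of -1.58 (interval -1.66 to -1.50) in footprints and -1.46 in RNA. Tubb5, a beta tubulin, had -1.46 (interval -1.52 to -1.40) and -1.35. Dbn1, which encodes the actin-binding protein drebrin, had 1327, 345, 985 and 200 footprints. Its footprint ratio was -1.41 (interval -1.59 to -1.24) with an RNA ratio of only -0.34, so footprints per RNA stood at -1.07, and the KO pair gave -2.51, -0.63 and -1.88 for the same measures. Nefl, a neurofilament subunit, went the other way in the control pair with 2.35 (interval 1.90 to 2.83) in footprints and 1.78 in RNA, while the KO pair had 0.02 in footprints, from few counts (51, 180, 23 and 27 in the 4 columns), and 2.27 in RNA.

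Axon guidance genes included members called in either direction. Footprints were lower for 12 and higher for 5 of 39, against 17.4% and 6.11% of all genes, with a median of -0.04 that became 0.19 when 100 counts were required. Ephb2, an Eph receptor, had 127, 13, 77 and 8 footprints and was lower in both pairs. Ephb1 and Dcc, receptors for ephrins and netrin, had 60 and 0 and 39 and 0 footprints in Ngn1-GFP and OMP-GFP control. With the 0 set to the floor they were 13.8-fold and 8.99-fold lower, with intervals up to log2 -3.45 and -2.80. Plxna4, a semaphorin co-receptor, was higher at 1.32 (interval 1.18 to 1.45), with an RNA ratio of 1.12. Epha5 and Epha7 were higher in footprints at 1.29 and 1.12, with 1.17 and 1.07 in the KO pair. Plxna3, another plexin, had 1.11 and 0.67.

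Adhesion genes of axon sorting leaned higher in the control pair, 7 higher and 3 lower of 33, against 6.11% and 17.4% of all genes, with a median of 0.34, against -0.04 in the KO pair. Kirrel2, a homophilic adhesion molecule whose level follows neuronal activity, had ratios of 1.19 (interval 1.13 to 1.26) in footprints and 1.54 in RNA, and 1.50 and 1.36 in the KO pair. Pcdh10, a protocadherin, had 1.22 (interval 1.07 to 1.38) and 1.32. The member farthest from no difference was lower: Ptprd, a receptor tyrosine phosphatase, had 149, 0, 40 and 24 footprints. With the 0 set to the floor it was 34.3-fold lower in OMP-GFP control, with an interval up to log2 -4.79. Its RNA ratios were -2.79 and -1.32 in the control and KO pairs.

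Mature neuron genes were higher in OMP-GFP cells, by less than precursor genes were lower. Of 38 members 13 were called higher in footprints, against 6.11% of all genes, and 1 lower, with a median of 0.82 and 0.77 in the KO pair. RNA was higher for 12, against 3.43% of all genes, with a median of 0.77, so the assays gave medians of similar size. As a list of markers this again checks the sort.

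The transduction cascade showed how small the steps were for abundant genes. Gnal, the alpha subunit of the olfactory G protein, had footprints of 2729, 4827, 3121 and 6766 CPM, and each OMP-GFP column was above both Ngn1-GFP columns. Its ratio was 0.82 (interval 0.79 to 0.86) for footprints and 1.10 for RNA, short of the 2-fold call in footprints. Omp had a ratio of 0.15 (interval 0.11 to 0.19) in footprints and 0.39 in RNA, and 0.53 and 0.58 in the KO pair. In the control pair only the OMP-GFP mice carried a knock-in at the Omp locus, so stage and allele cannot be told apart for this gene. Adcy3, the cyclase that makes cyclic AMP, had 0.82 (interval 0.77 to 0.88) and 1.14. Gng13, the gamma subunit that partners Gnal, had a footprint ratio of 0.63 and an RNA ratio of 1.18.

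The ion channels of the cascade were graded. Cnga2, the main channel subunit gated by cyclic AMP, had footprints of 608, 757, 656 and 1066 CPM and a ratio of 0.32 (interval 0.24 to 0.39), with an RNA ratio of 0.76. Cnga4 and Cngb1, its modulatory subunits, had footprint ratios of 1.13 (interval 1.06 to 1.19) and 0.93 (interval 0.84 to 1.03). Ano2, the calcium-activated chloride channel that amplifies the current, had 1.24 (interval 1.16 to 1.32) in footprints and 1.29 in RNA, with 1.06 and 1.14 in the KO pair. Cnga2 was thus the subunit closest to no difference, and Ano2 and Cnga4 passed the call. Pde1c, a phosphodiesterase of the cilia, was higher at 1.17 (interval 1.09 to 1.26). Rgs2, a regulator of G protein signalling, was the member called lower in footprints, with 268, 40, 205 and 41 footprints. Its ratios were -2.21 in footprints and -2.32 in RNA. Grk3 of the same list was also called lower in RNA, at -2.45 (interval -3.42 to -1.61), with -2.54 in the KO pair. Over the list, 6 of 27 were higher and 1 lower in footprints, with a median of 0.56.

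Other mature markers ranged widely in abundance. Umodl1, the membrane protein olfactorin, had 8519, 17956, 7977 and 18972 footprints and ratios of 1.61 (interval 1.57 to 1.65) in footprints and 1.45 in RNA. Cidea, a lipid droplet protein, had 204, 452, 110 and 438 footprints and ratios of 1.68 (interval 1.44 to 1.93) and 1.03. Carns1, which makes carnosine, had 1.49 (interval 1.40 to 1.58) in footprints and 0.79 in the KO pair. Gfy, the Golgi protein goofy, held the most footprints among the stage genes plotted, 105622, 124840, 78399 and 158240, and its ratios were 0.77 in footprints and 1.23 in RNA.

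Promoters of the mature list were searched for the core of the Ebf site, the letters CCCNNGGG, which reads the same on both strands. Of its 39 promoters 10 (25.6%) held it in the 250 bases before the start, against 11.8% of all promoters, but the precursor list, which was lower, held it in 8 of 22 (36.4%). The motif therefore did not separate the lists by direction. The promoters of Cnga2, Gng13 and Gfy are shown as transduction and transport genes that hold it, from RefSeq on GRCm38.p6, 5′ to 3′ along the gene's strand, with the matched letters in capitals. Cnga2 lies on the plus strand at chrX:71991599-71991848 with the match beginning 66 bases before the start. Gng13 lies on the plus strand at chr17:25716922-25717171 with 2 overlapping matches beginning 95 bases before it, while the window of its other RefSeq start and both windows of Adcy3 held none. Gfy lies on the minus strand at chr7:45179598-45179847 with the match beginning 41 bases before it.
Cnga2: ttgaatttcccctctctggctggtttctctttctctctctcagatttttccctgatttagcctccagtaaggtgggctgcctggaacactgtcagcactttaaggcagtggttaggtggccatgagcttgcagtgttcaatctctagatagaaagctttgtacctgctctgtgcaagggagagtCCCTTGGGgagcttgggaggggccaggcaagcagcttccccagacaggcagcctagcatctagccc
Gng13: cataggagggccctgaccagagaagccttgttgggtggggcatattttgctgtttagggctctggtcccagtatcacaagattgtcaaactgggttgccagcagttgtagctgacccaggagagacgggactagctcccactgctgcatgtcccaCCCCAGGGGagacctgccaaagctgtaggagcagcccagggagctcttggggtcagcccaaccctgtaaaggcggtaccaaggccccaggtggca
Gfy: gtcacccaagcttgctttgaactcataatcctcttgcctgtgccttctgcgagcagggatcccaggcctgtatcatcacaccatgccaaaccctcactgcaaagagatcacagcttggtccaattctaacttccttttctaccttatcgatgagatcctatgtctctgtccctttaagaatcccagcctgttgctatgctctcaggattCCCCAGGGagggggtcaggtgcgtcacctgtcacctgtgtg

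Genes that fold odorant receptors and carry them to the cell surface had a median near 0. Footprints were higher for 3 and lower for 1 of 21, with a median of 0.07 that became -0.14 with scaling by library size alone. Rtp1 and Rtp2, chaperones that bring odorant receptors to the cell surface, had footprint ratios of 0.56 (interval 0.51 to 0.62) and 1.06 (interval 0.98 to 1.13). Reep1, an endoplasmic reticulum shaping protein, was higher at 1.42 (interval 1.13 to 1.72) and Reep5 of the same family lower at -1.54 (interval -2.01 to -1.09). Hspa8, a constitutive heat shock chaperone, was higher in footprints at 1.53 (interval 1.29 to 1.76) with an RNA ratio of -0.77, but its RNA counts of 204845, 41436, 34336 and 37600 were highest in the Ngn1-GFP control column that stood apart, and the KO pair gave 0.61 and 0.29. The unfolded protein response list, which links receptor expression to the end of receptor choice, had 0 higher and 1 lower of 20, with a median of -0.12. Atf5, the factor whose translation that response raises, had 5806, 3028, 5869 and 4848 footprints, a footprint ratio of -0.41 (interval -0.47 to -0.34) and an RNA ratio of 0.57.

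Several transcription regulators of receptor choice were lower in footprints, and some of them less so in RNA. Of 33 members 7 were called lower and none higher in footprints, a share near the 17.4% of all genes, with a median of -0.41 against -0.09 in RNA and -0.07 in footprints per RNA, and 6 were lower in both pairs. Lhx2, a LIM homeodomain factor needed for receptor expression, had footprints of 353, 105, 349 and 119 CPM, and both OMP-GFP columns lay below both Ngn1-GFP ones. Its ratios were -1.75 (interval -1.92 to -1.59) in footprints, -0.29 in RNA and -1.47 (interval -1.63 to -1.30) in footprints per RNA, and in the KO pair -1.55, -0.46 and -1.09. Tshz1, a zinc finger factor, had 534, 75, 286 and 80 footprints and ratios of -2.30 in footprints and -0.77 in RNA. Nfia, a nuclear factor I protein, and Smchd1, a chromatin silencing protein, had footprint ratios of -1.37 and -1.05, with -1.72 and -1.12 in RNA. Ebf1, an early B cell factor that acts throughout the lineage, had a footprint ratio of -0.82 (interval -0.94 to -0.69) with an RNA ratio of 0.08. Ebf4 of the same family went the other way at 0.71 and 0.77. Ldb1, the partner of Lhx2, had -0.75 and -0.15. Ebf1, Ebf4, Ldb1 and Atf5 were picked after their values were seen.

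Odorant receptors as a family were modestly higher in footprints in mature cells. Footprints were higher for 181 and lower for 62 of 764 measured receptors, against 6.11% and 17.4% of all genes, with a median of 0.43 and 0.32 in the KO pair. Summed over the family, they took 0.833%, 0.962%, 0.903% and 0.950% of footprints, so all columns were close. RNA gave a median of 0.11 over 1093, with 120 higher and 174 lower, against 3.43% and 24.1% of all genes. Without the 12 receptors whose RNA stood apart, the RNA median was 0.12 over 1081. In the KO pair RNA was higher for 206 and lower for 67 of 1019, with a median of 0.38. There 4.73% and 16.2% of the genes measured in both pairs were called. Receptor footprints per RNA had a median of 0.20 in the control pair and -0.15 in the KO pair. Single receptors had few counts and differed widely. Olfr1148 had 2, 44, 12 and 6 footprints, a ratio of 4.99 (interval 3.05 to 8.08), and Olfr1055 had 54, 1, 34 and 0, a ratio of -5.22 (interval -10.55 to -2.68). Each receptor is expressed in a small set of neurons and reads can be split between near-identical receptor genes, so single members are uncertain. Of the receptors called in the control pair, 64 of 181 higher and 17 of 62 lower were called in the same direction in the KO pair. That pair called 200 higher and 117 lower of the 702 receptors measured in it. Of the 764 measured in the control pair, 636 were measured there.

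Trace amine-associated receptors, a small separate family of olfactory receptors for amines, were higher. Footprints were called higher for 5 of 11 and lower for none, with a median of 0.74. The KO pair had a median of 0.75 over the 9 of these that were measured there. Taar6 had 98, 156, 72 and 466 footprints and a ratio of 1.20 (interval 0.83 to 1.58), and Taar7a and Taar9 had 1.91 (interval 1.14 to 2.73) and 2.24 (interval 1.48 to 3.06). Clustered protocadherins, cell surface proteins that give neurons individual identities, leaned higher at a median of 0.37, with 7 higher and 1 lower of 57. Pcdhb13 had 22, 91, 24 and 101 footprints, a footprint ratio of 2.58 (interval 1.90 to 3.32) and an RNA ratio of 0.02. Its footprints per RNA stood at 2.56 in the control pair and 2.05 in the KO pair.

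Genes of the synapse and of excitability leaned higher in mature cells. Presynaptic release genes were higher for 6 and lower for 1 of 38 in footprints, with a median of 0.40 and 0.43 in the KO pair. In RNA none of 41 was called higher and 3 were called lower, at a median of 0.48. Those 3 were lower in both pairs. The core fusion genes Snap25 and Syt1 had footprint ratios of 0.72 and 0.70. Nsf, which recycles the fusion complex, had 1.03 (interval 0.92 to 1.14), and Rab3b, a vesicle GTPase, 1.08 (interval 0.91 to 1.24). Vamp1, a vesicle fusion protein, had only 13, 36, 29 and 107 footprints and an interval of 1.05 to 3.04 for its ratio, with an RNA ratio of 0.14. Channel genes were higher for 6 and lower for 3 of 29 in footprints, with a median of 0.54. In RNA 5 were higher and 9 lower of 42, against 3.43% and 24.1% of all genes, with a median of 0.47. Of these, 3 were higher and 7 lower in both pairs. Kcnma1, the large-conductance potassium channel opened by calcium, had 482, 891, 349 and 1077 footprints and a ratio of 1.42 (interval 1.26 to 1.58), and 1.42 in the KO pair. Its partner subunit Kcnmb3 had 1.34 (interval 1.11 to 1.58) and 1.73. Scn3b, a sodium channel beta subunit, had 1.35 (interval 1.21 to 1.48), and Kcnk1, a background potassium channel, -3.81 (interval -5.29 to -2.65).

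Genes that build cilia, the odour-sensing extensions of mature neurons, leaned higher by small steps. Of 51 members 48 had a footprint ratio above 0, against 49.1% of all genes, with a median of 0.50. Only 5 passed the call, against 6.11% of all genes, and none passed it in RNA at a median of 0.41. Ift172, a component of intraflagellar transport, had 524, 975, 527 and 684 footprints and ratios of 1.43 (interval 1.27 to 1.58) in footprints and 0.58 in RNA. Dync2h1, the motor of the return transport, had 1.38 (interval 1.23 to 1.53) and 0.72. Bbs2 and Bbs5, subunits of the complex that sorts ciliary membrane proteins, had 1.13 (interval 0.95 to 1.31) and 1.23 (interval 0.97 to 1.49). In the KO pair these genes stood at 0.17, 0.05, 0.48 and 0.14, and no member was called higher in both pairs. Markers of respiratory ciliated cells, which share cilia genes, had a footprint median of 0.79 over 9, with none called, and their part in the ciliary ratios was not tested.

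Several functions are served by pairs of related genes whose shares differed between the stages. For the stimulatory G protein alpha subunits, compared per kilobase of coding length, Gnas had 105, 11.2, 93.3 and 9.05 CPM of footprints and Gnal 1829, 3235, 2092 and 4535. Gnal was therefore 94.6%, 99.7%, 95.7% and 99.8% of the sum of the pair. Gnas had 2375, 175, 1373 and 154 footprints in all, with ratios of -3.23 (interval -3.46 to -3.01) in footprints and -2.23 in RNA, and -3.37 and -1.73 in the KO pair. Gng13 was 86.1%, 97.1%, 84.0% and 98.7% of its sum with Gng8. Eef1a2, the form of elongation factor 1 alpha of mature neurons and muscle, was 76.1%, 88.0%, 82.7% and 91.1% of its footprint sum with Eef1a1. Dnm1, the neuronal dynamin of vesicle recycling, was 78.0%, 84.9%, 79.4% and 84.4% of its sum with Dnm2. In each of these 4 pairs both OMP-GFP columns lay above both Ngn1-GFP columns, and they were picked from 17 pairs after their values were seen. Of those 17, the share of the second gene was higher in both OMP-GFP columns in 9 and lower in both in 2. In the other 6 the columns overlapped or the second gene had no footprints.

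**Figure D3:**
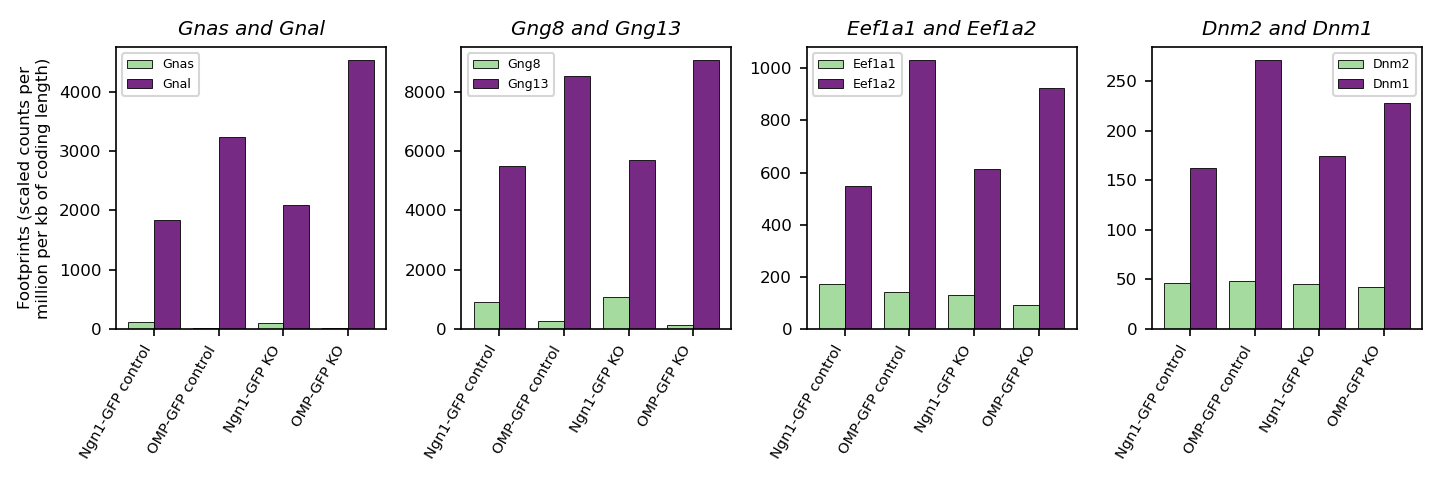
Footprints of 4 pairs of related genes as CPM per kilobase of coding length (y axis, from 0 in each panel) in the 4 columns (x axis), with 1 bar per gene and column. Gnal takes 94.6% and 99.7% of its sum with Gnas in Ngn1-GFP and OMP-GFP control, and Gng13 takes 86.1% and 97.1% of its sum with Gng8.

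Nuclear genes of oxidative phosphorylation leaned higher in the control pair. In footprints 54 of 56 had a ratio above 0, against 49.1% of all genes, with a median of 0.48. Of these 2 passed the call, and the KO pair had a median of 0.25. Atp5h, an ATP synthase subunit, was one of these at 1.00 (interval 0.76 to 1.25), with -0.19 in the KO pair. Translation factors had a footprint median of 0.03 (-0.18 with scaling by library size alone), with none higher and 1 lower of 44. Proteasome subunits had 0.14 (-0.08 with that scaling), sterol synthesis genes 0.09 (-0.13) and lysosome genes 0.11 (-0.11), with 0, 2 and 2 members called lower. Glycolysis genes were higher for 1 and lower for 3 of 19, with a median of 0.38. Immediate early genes, which respond to activity and to dissociation, were higher for 1 and lower for 5 of 17, and Junb of that list had a ratio of -1.32 (interval -1.52 to -1.12).

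Histones, ribosomal proteins and mitochondrially encoded genes are given apart because of the Ngn1-GFP control RNA column. Clustered histone genes, which are transcribed in S phase, were lower in footprints for 32 of 52, with a median of -1.54, and those 32 were lower in both pairs. Their RNA median was -3.96 in the control pair and -1.77 in the KO pair, and footprints per RNA were 2.02 and -0.43. In the Ngn1-GFP control RNA column 24 histone genes stood apart, and without them the control medians were -2.90 in RNA and 1.23 in footprints per RNA. Hist1h4m shows it, with RNA counts of 17265, 0, 0 and 0 and footprints of 478, 0, 256 and 19. Ribosomal protein genes had a footprint median of -0.21 over 40, while their RNA median was -1.21 in the control pair and -0.27 in the KO pair, with -1.20 in the control pair without the single member that stood apart. Mitochondrially encoded genes had an RNA median of -1.21 over 13 in the control pair, or -0.54 over 7 without the 6 that stood apart. The KO pair gave -0.07 over 7. Of mt-Co1, a cytochrome oxidase subunit, the RNA counts were 1098288, 164669, 162355 and 156497. Eno1, a glycolytic enolase with processed copies in the genome, had 37992, 4647, 3268 and 4076 RNA counts and Tubb2a, a beta tubulin, 30121, 906, 1125 and 932, so their footprints per RNA of 2.22 and 3.53 rest on that column as well.

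Genes that bind, silence or degrade mRNA were called in footprints no more often than all genes. In the decay list 7 of 46 were lower and 2 higher in footprints, against 17.4% and 6.11% of all genes, with a median of -0.13. The lower ones included 3 zinc finger proteins that bring deadenylases to AU-rich mRNAs. Zfp36l1 had 280, 7, 48 and 19 footprints and ratios of -4.79 (interval -6.12 to -3.73) in footprints and -2.43 in RNA, Zfp36l2 had 46, 1, 33 and 8 footprints, and Zfp36 a ratio of -2.02. All the Mex3 genes had lower footprints in mature cells. Mex3d had a ratio of -2.71 (interval -3.88 to -1.72), Mex3b -1.45 and Mex3c -1.33, and Mex3c RNA was at 0.17. Footprints per RNA stood at -1.50 and -0.23 for Mex3c in the control and KO pairs, and at -1.81 and 0.15 for Mex3d. Over the decay list 5 of 46 were called lower in that measure, against 8.54% of all genes, and 1 of them in both pairs. Those higher in footprints were Tnrc6b, an Argonaute partner, at 1.07 and 1.17 in the control and KO pairs, and Ago3, an Argonaute, at 1.03. Among neuronal RNA-binding genes 5 of 38 were lower and none higher, against the same shares. Elavl4, which stabilises neuronal mRNAs, had -1.19 (interval -1.37 to -1.02) in footprints and -1.20 in RNA. Rbms3 had 86, 13, 53 and 11 footprints, a footprint ratio of -2.19 and an RNA ratio of 0.48, which put footprints per RNA at -2.67, with -2.21 in the KO pair.

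Footprints per RNA spread less across genes than footprints, with an SD in log2 of 0.90 over 12378 genes against 1.27 over 12387. The RNA SD of 1.54 was over 16466 genes, a wider set, and cannot be compared directly with these. The medians of the mature neuron, transduction and presynaptic lists were -0.05, -0.13 and -0.06, against -0.09 for all genes, so footprints and RNA differed by similar amounts there. Neuronal RNA-binding genes stood at -0.33 and trace amine receptors at 0.47, and precursor genes at -0.48. In the KO pair these 3 lists stood at -0.19, 0.32 and 0.14, so precursor genes had the opposite sign there. Over the 9 trace amine receptors measured in both pairs the KO median was -0.02. Sustentacular markers had a median of -1.51, with 17 of 23 called lower against 8.54% of all genes. By coding length, the medians of the length classes ran from -0.17 for 2000 to 4000 bases to 0.09 up to 500 bases, without receptors and the genes whose RNA stood apart.

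**Figure D4:**
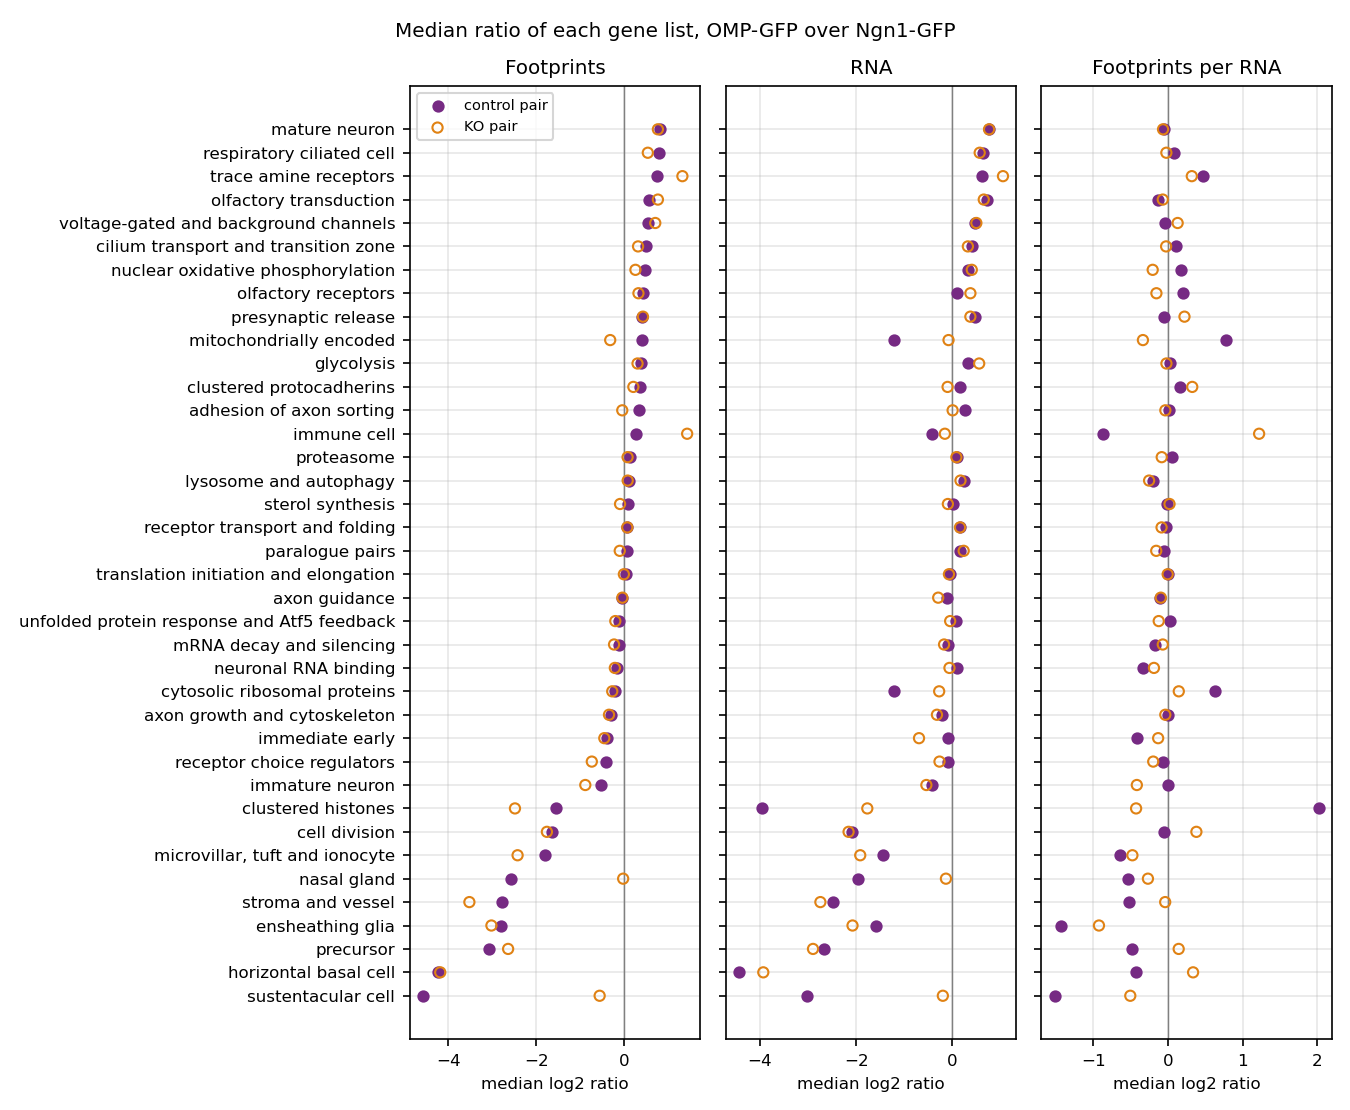
Median log2 ratio of OMP-GFP over Ngn1-GFP for each gene list (y axis) in footprints, RNA and footprints per RNA, with the control pair filled and the KO pair open, each over the members measured in that pair. The x axes give the medians. In footprints and RNA, mature and transduction lists lie right of 0 and precursor and cell division lists left of it in both pairs, while footprints of sustentacular markers lie at -4.57 in the control pair and -0.56 in the KO pair, and histones, ribosomal proteins and mitochondrially encoded genes differ between pairs in RNA.

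Single genes with lower footprints per RNA in both pairs were examined, as they cannot rest on a column that the pairs share. Of 899 genes called lower in the control pair and measured in both, 260 (28.9%) were called lower in the KO pair, where 12.9% of all genes were, and 98 were called higher. Of 602 called higher, 123 (20.4%) were called higher in the KO pair, where 9.32% of all genes were, and 111 lower. Higher calls were thus reversed nearly as often as they recurred. Gsk3a, a kinase of the glycogen synthase kinase family, had 536, 146, 219 and 113 footprints, with footprints per RNA at -1.68 (interval -1.95 to -1.41) and -1.39 in the pairs while RNA was at 0.33 and 0.23. Lrrfip2 had 265, 73, 188 and 72 footprints and -1.65 (interval -2.03 to -1.27) and -1.83, and Asnsd1 99, 10, 79 and 19 footprints and -2.64 (interval -3.58 to -1.70) and -2.25. Jakmip1, a neuronal protein that binds microtubules and Janus kinases, had 637, 396, 426 and 291 footprints and -1.22 (interval -1.41 to -1.03) and -1.77. Higher in both pairs were Ywhaz, a 14-3-3 adaptor, at 2.07 and 2.42, and Chml, a Rab escort protein, at 1.84 and 3.12. These genes were chosen after their values were seen, from those ranked highest in both pairs.

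Ranked by the bound of the interval nearest no difference, the genes with the highest footprint ratios outside the receptors were less familiar ones. Wdr17, a WD-repeat protein, had 255, 1196, 274 and 1811 footprints, so each OMP-GFP column was several times above either Ngn1-GFP column. Its ratio was 2.76 (interval 2.57 to 2.96) for footprints and 1.62 for RNA, and 2.51 and 2.11 in the KO pair. Trim15 had 5, 38, 7 and 38 footprints and a ratio of 3.46 (interval 2.11 to 5.16), and Eci3, an enzyme of fatty acid oxidation, 13, 59, 20 and 49 and 2.71 (interval 1.83 to 3.71). Gucy1b2, a soluble guanylate cyclase subunit of a small set of olfactory neurons, had 61, 197, 0 and 46 footprints and ratios of 2.22 in footprints and 2.17 in RNA. The genes ranked lowest differed in how the KO pair compared. Tsku, a secreted leucine-rich protein, had 624, 2, 40 and 67 footprints with ratios of -7.75 (interval -10.80 to -5.89) in the control and 0.53 in the KO pair, and Aqp3, a water channel, 1660, 28, 268 and 129 with ratios of -5.36 (interval -5.95 to -4.82) and -1.27. Dsc3, a desmosomal cadherin of epithelia, had 129, 0, 72 and 10. It was 29.7-fold lower in OMP-GFP control with the 0 set to the floor, and had a ratio of -3.06 in the KO pair. These are not on the other-cell lists, but they stood in the Ngn1-GFP control column beside sustentacular markers at 0.947% of its footprints, and whether they come from such cells was not tested.

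In RNA, the genes ranked highest included Hjurp, a chaperone of the centromeric histone, with RNA counts of 10283, 13034, 4995 and 9346. Its ratios were 1.87 (interval 1.84 to 1.91) in RNA and 1.73 in footprints, so a gene with a role in cell division was higher in mature cells while the cell division list was lower. Cdh23, a cadherin of sensory hair cell links, had RNA counts of 2878, 3154, 1093 and 2777 and ratios of 1.66 (interval 1.59 to 1.74) in RNA and 2.08 in footprints. Cfap43, a cilium and flagellum gene, had 1.95 (interval 1.82 to 2.09) in RNA but 0.57 in footprints. Egr4, an immediate early transcription factor, had 2.17 (interval 1.93 to 2.41) in RNA and only 8, 38, 12 and 0 footprints.

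For footprints per RNA, the genes ranked lowest included Entpd5, an enzyme of the endoplasmic reticulum, with 689, 67, 95 and 84 footprints and 3363, 910, 837 and 829 RNA counts. Its footprint ratio lay far below its RNA ratio in the control pair. This put footprints per RNA at -2.48 (interval -2.85 to -2.10), and the KO pair gave -0.54. Apcdd1, an inhibitor of Wnt signalling, had -2.85 (interval -3.80 to -1.90) and -1.19. Scarb1, a receptor for high-density lipoprotein, had 181, 4, 44 and 0 footprints and -3.35 (interval -4.80 to -1.90). The highest included Rbpj, the DNA-binding factor of Notch signalling, with 29, 48, 40 and 44 footprints and 7843, 451, 595 and 324 RNA counts, a ratio of 3.85 (interval 3.17 to 4.53). That value turns on the high RNA count of Ngn1-GFP control, and the KO pair gave 0.64. Cir1, a co-repressor that binds Rbpj, had RNA counts of 8046, 468, 391 and 455 and 31, 42, 3 and 59 footprints, with footprints per RNA at 3.54 (interval 2.86 to 4.23) in the control and 3.71 (interval 2.02 to 5.39) in the KO pair. The control value turns on the same RNA column and the KO value on 3 footprints in Ngn1-GFP KO.

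Genes called in both pairs do not rest on the control columns alone. Markers of stroma and vessel, horizontal basal cells and ensheathing glia, however, took more footprints in both Ngn1-GFP columns than in the OMP-GFP ones. Of these lists 15, 7 and 6 members were lower in footprints in both pairs, and the part of such cells in the shared calls was not tested. In footprints 1031 of 1652 genes lower in the control pair (62.4%) were lower in the KO pair, which is 51.7% of that pair's lower genes, where 17.5% of all genes were lower. For gains the figure was 234 of 675 (34.7%), or 19.0% of that pair's higher genes, where 10.8% were higher. Opposite calls numbered 116. In RNA 1830 of 2891 lower genes (63.3%) were lower in the KO pair, where 16.2% of all genes were lower. Of 495 genes higher in RNA, 196 (39.6%) were higher there, where 4.73% were, and 127 calls were opposite. Nsg1, a neuronal endosomal protein, was among the abundant genes that were higher in both, with 12983, 22524, 10293 and 43860 footprints and ratios of 1.33 and 1.88. Plekhb1 had 5860, 12315, 4900 and 14095 footprints and ratios of 1.60 and 1.31, and Rasgrp4, a Ras activator, 2.15 and 1.48. Rnf150, a ring finger protein, had 166, 364, 107 and 409 footprints and ratios of 1.66 and 1.72, and Scgn, the calcium-binding protein secretagogin, 285, 511, 121 and 352 and 1.37 and 1.33. Nsg1, Plekhb1, Rnf150 and Scgn were chosen after their values were seen.

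**Figure D5:**
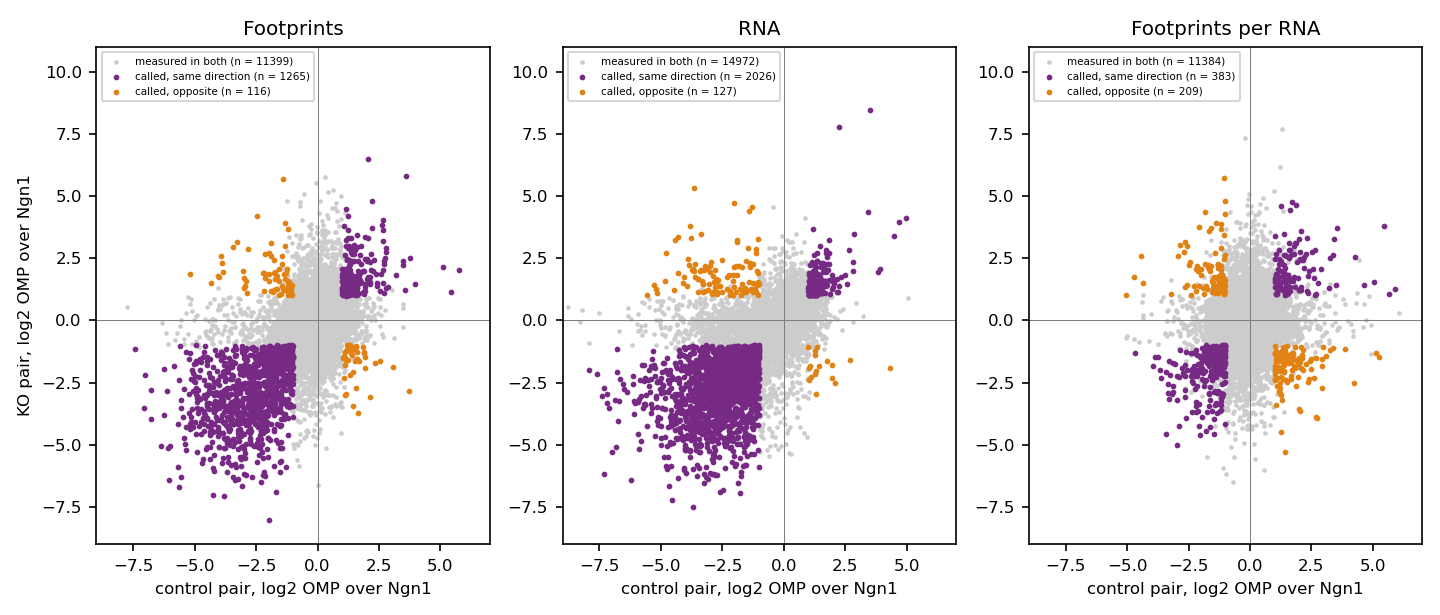
Log2 ratio of OMP-GFP over Ngn1-GFP in the control pair (x axis) and the KO pair (y axis) for footprints, RNA and footprints per RNA, one point per gene measured in both. Called genes are coloured by whether both pairs gave the same direction (1265, 2026 and 383 genes) or opposite ones (116, 127 and 209).

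The spread of footprint ratios narrowed with abundance but stayed above counting error. Genes with a mean of 10 to 30 footprints in the pair had an SD of log2 ratios of 1.76 across genes, against 0.78 from counting error, and 50.4% were called. Genes with 1000 or more had 0.83 against 0.054, and 10.8% were called. The differences of abundant genes such as Gnas, Umodl1 and Lhx2 are far wider than their counting intervals, and no replicate shows how far samples of the same cells would differ.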

How the data were processed

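Footprint and RNA counts over coding sequences were deposited by the authors as raw counts, 1 column per group and assay. Per the submitters' processing notes, reads went through cutadapt, FastQC and STAR (versions not given) on build mm10; per the labels' protocols the kit was a stranded one for total RNA. No source used here states how 2 libraries became 1 column or whether counting used strand. The authors' deposited ratio of footprints to RNA, RPKM and TPM columns were not used. From the counts, TMM factors were computed over the 4 columns of each assay with edgeR 4.0.16 on R 4.3.3, and ratios with Python 3.11.15 and scipy 1.17.1. Intervals are exact conditional binomial ones at 95%, approximate for footprints per RNA. With 1 column per group no count model could be fitted, so the planned tests became descriptions. The steps were checked on simulated data. Genes were named by rank of the interval bound nearest no difference (10 per direction in footprints, 8 in RNA and footprints per RNA, 4 per list), plus fixed stage genes and paralogue pairs. Some genes of the lists are not reported here. The members and the 38 gene lists were chosen with earlier results of these data known. Promoters were matched by symbol, for 16434 genes (72.9%). Alternatives covered scaling (DESeq2 1.42.0 size factors, library size), the count minimum, the fold and the genes left out.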

Additional observations from a re-analysis of the deposited data

Results flagged for a closer look

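In 15 genes of the lists or the ranked genes the control and KO pairs were called in opposite directions. The difference between the pairs was not tested, since each rests on 1 column per group. Values are log2 of OMP-GFP over Ngn1-GFP, control pair first. In footprints, Nrn1, a growth-promoting protein of axons, stood at 1.458 and -2.085. Ublcp1, a phosphatase of the proteasome, stood at 1.57 and -1.085. Nr4a3, an immediate early nuclear receptor, stood at -2.991 and 1.716. C1qb, a complement protein of phagocytes, stood at -1.638 and 1.79, and Scgb2b27, a secretoglobin of glands, at -3.022 and 1.969. In RNA, the sustentacular genes Cyp2g1, Muc2 and Sec14l3 stood at -4.041 and 1.737, at -3.341 and 1.601, and at -3.034 and 1.45. The globins Hbb-bs and Hbb-bt of red blood cells stood at -2.308 and 1.259 and at -2.841 and 1.538. Slc2a3, a glucose transporter, stood at -3.351 and 2.036, and Kcnk2, a background potassium channel, at -2.762 and 1.656. Atp6v0c, a proton pump subunit, stood at -2.07 and 1.827, Ndufs5, a subunit of complex I, at -2.2 and 1.014, and Psmb8, an immunoproteasome subunit, at -2.895 and 1.162.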

How the results depend on the processing

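No paired analysis was possible because the table holds 1 column per group, and for the same reason no single replicate could be left out. Each interval covers counting error, so what 2 animals of 1 group would differ by is unknown. With scaling by library size alone, footprints were higher for 461 genes in place of 757 and lower for 2605, and footprints per RNA were higher for 570 and lower for 1490. The medians of all genes moved by -0.21 in footprints, -0.17 in footprints per RNA and -0.04 in RNA. With no minimum beyond 1 count, footprints per RNA were higher for 1395 genes. With 100 counts required, footprints were higher for 374 and lower for 853 of 8673 genes, and footprints per RNA higher for 222 and lower for 489 of 8666, so the share called fell as well as the number tested. With a fold of 4, footprints were higher for 113 and lower for 1268, RNA for 63 and 2431, and footprints per RNA for 227 and 270. DESeq2 size factors gave 743 higher and 2173 lower in footprints. Of 1119 gene ratios followed through these scalings, none changed direction while called; library size alone ended 38 calls and added 19, and DESeq2 size factors ended 3 and added 2. In footprints per RNA, the cilium median became -0.06, the protocadherin median -0.01 and the proteasome median -0.12 with library size alone. The footprint median of immune markers became -0.05 with no minimum.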
